A study of Mus musculus with 20 samples.

Results

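Metallothioneins and the carriers and sensor that hold cellular zinc in balance were followed as 7 genes, Mt1, Mt2, Mtf1, Slc30a1, Slc30a10, Slc39a10 and Slc39a14, out of 40440 entries in the count table. They were selected by symbol from a table whose surgery contrast in liver, including the difference of Mt1, had already been looked at. Which measured values chose each of the 7 is not recorded, so every surgery difference in liver below is a description and carries no test. The libraries came from male C57BL/6J mice that ate regular chow until epididymal visceral adipose tissue was removed (VATR) or only the abdomen was opened (sham) at 8 to 9 months of age. After surgery both groups were switched to a high-fat diet, so no library shows a chow-fed animal after surgery. Total RNA without ribosomal RNA was sequenced from liver and from subcutaneous adipose tissue (SAT), with 5 libraries for each of sham liver, VATR liver, sham SAT and VATR SAT, 20 in all.

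Total counts ran from 20307159 to 43618452 per library. The tissue labels matched their markers: the summed level of 5 hepatocyte genes was 47672 to 67251 CPM (reads per gene after scaling for depth) in livers and 4.37 to 32.1 CPM in SAT, while 5 adipocyte genes summed to 7915 to 17552 CPM in SAT and at most 146.4 CPM in liver. Several libraries stood apart, some of which were known from earlier results of these data. Sham liver 5 had 256.8 CPM of the antiviral gene Rsad2, against 8.81 to 39.5 CPM in the other 9 livers. VATR liver 3 had 79.8 CPM of the male-biased elongase gene Elovl3, a level within the sham range, against 3.38 to 5.09 CPM in the other VATR livers, and it also held the 146.4 CPM of adipocyte markers. VATR liver 1 had 614.1 CPM of 6 macrophage and Kupffer cell markers, with 298.2 CPM the next highest in its group. In SAT, sham libraries 3 and 4 carried 424.3 and 429.4 CPM of lymphocyte markers, and VATR library 2 carried 22917 CPM of skeletal muscle markers. Sham SAT library 2 carried 1855.8 CPM of these muscle markers, with 50.9 CPM the next highest in its group. The labels do not say that the libraries of a group came from separate mice, so p-values measure the spread between these samples. In whole tissue, fewer cells of a type and less RNA per cell cannot be told apart.

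Metallothioneins are small, cysteine-rich proteins that bind zinc and copper, and in mouse liver Mt1 and Mt2 are the widely expressed members. The transcription factor Mtf1 senses zinc and activates metallothionein genes and the zinc exporter gene Slc30a1 through short metal response elements in their promoters, and it is known to repress Slc39a10. Proteins of the Slc30a family carry zinc out of the cytosol and those of the Slc39a family carry it in. Slc39a14 imports zinc, manganese and iron and is abundant in hepatocytes, whereas Slc30a10 is chiefly a manganese exporter, so the name zinc handling covers it only loosely. Liver metallothionein genes also respond to glucocorticoids and to inflammatory cytokines.

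Mt2 and Mt1 lie in tandem on the plus strand of chromosome 8. On GRCm38, with GENCODE M21 gene models, Mt2 spans chr8:94172664-94173568 and Mt1 spans chr8:94179082-94180327, with 5513 bases between them. Mtf1 lies at chr4:124802104-124849800 on the plus strand, Slc30a1 at chr1:191906767-191913247 and Slc30a10 at chr1:185454848-185468762, both on the plus strand. Slc39a10 lies at chr1:46807544-46892852 and Slc39a14 at chr14:70303469-70351425, both on the minus strand. To show where Mtf1 could bind, the 250 bases before the RefSeq transcript start (GRCm38.p6) were read for the core of the metal response element, TGCACNC or TGCGCNC, on both strands with overlapping matches allowed. RefSeq windows were found for 6 of the 7 genes, all but Slc39a14. The 3 genes printed are those among them that Mtf1 is known to activate. All run 5′ to 3′ along the transcribed plus strand, and capitals mark the core matches, in reverse complement where the match is on the minus strand.
Mt1, chr8:94178839-94179088: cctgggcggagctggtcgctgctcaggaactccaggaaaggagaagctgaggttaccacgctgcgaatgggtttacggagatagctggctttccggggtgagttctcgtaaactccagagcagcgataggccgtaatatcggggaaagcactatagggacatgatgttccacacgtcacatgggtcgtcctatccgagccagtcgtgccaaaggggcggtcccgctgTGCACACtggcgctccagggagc
Mt1, first 30 transcribed bases, chr8:94179089-94179118: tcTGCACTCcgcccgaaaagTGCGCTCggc
Mt2, chr8:94172368-94172617: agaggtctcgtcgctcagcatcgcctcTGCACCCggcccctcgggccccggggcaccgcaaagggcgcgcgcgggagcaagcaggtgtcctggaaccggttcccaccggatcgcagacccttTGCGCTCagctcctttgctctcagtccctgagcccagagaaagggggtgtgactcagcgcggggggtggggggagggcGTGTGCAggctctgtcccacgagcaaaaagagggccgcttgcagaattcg
Slc30a1, chr1:191906531-191906780: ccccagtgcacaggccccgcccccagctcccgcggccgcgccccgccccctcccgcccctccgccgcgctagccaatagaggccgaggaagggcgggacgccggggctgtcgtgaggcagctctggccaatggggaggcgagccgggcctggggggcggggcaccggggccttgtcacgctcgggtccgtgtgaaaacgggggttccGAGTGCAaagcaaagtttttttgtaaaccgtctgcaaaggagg
The Mt1 window held 1 core, TGCACAC, from 23 to 17 bases before the RefSeq start, and another 2 lay within the 30 bases past it. Those bases are called transcribed only by that RefSeq start. The gene models hold 3 transcripts of Mt1, and the start used in these tissues was not measured. How many cores precede the start of Mt1 is therefore not settled here, and the counts do not rank the genes. Mt2 and Slc30a1 each had 1 more core past the start, in bases that are not printed. Mt2 held 3 cores in its 250 bases, Slc30a1 held 1 on the minus strand from 43 to 37 bases before the start, and Slc30a10 held 3, of which 2 overlapped on opposite strands. The windows of Mtf1 and Slc39a10 held none. At least 1 core was present in 21.4% of 32851 such windows over all genes, at least 2 in 5.17% and at least 3 in 1.26%. A match is a description of these letters and not a binding site, and binding was not measured.

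In liver, Mt1 and Mt2 were the members that differed most between the surgeries. Mt1 was at 11.4, 12.1, 29.3, 27.8 and 58.1 CPM in sham livers 1 to 5. In VATR livers 1 to 5 Mt1 was at 98.2, 63.2, 72.0, 57.0 and 83.4 CPM. All VATR livers lay above the sham mean and 4 of 5 lay above every sham liver, with VATR liver 4 just under sham liver 5 as the single point of overlap. The means were 27.7 ± 19.0 CPM (SD, n = 5) in sham and 74.8 ± 16.4 CPM (SD, n = 5) in VATR livers. The log2 difference, VATR minus sham, was 1.43 ± 0.41 (SE), and 0.509% of the 17078 genes tested in liver had a larger one in either direction. The spread among sham livers was the wider, with a coefficient of variation of 68.3% against 22% after VATR.

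Mt2 followed the same pattern with more scatter. In sham livers 1 to 5 it was at 4.15, 5.61, 12.6, 11.0 and 41.8 CPM. VATR livers 1 to 5 had 44.2, 26.2, 44.3, 17.2 and 42.8 CPM of Mt2. Sham liver 5 reached the level of the high VATR livers, so 3 of 5 VATR livers lay above the sham range and 2 within it. Mean Mt2 was 15.0 ± 15.4 CPM (SD, n = 5) in sham and 34.9 ± 12.5 CPM (SD, n = 5) in VATR livers, a log2 difference of 1.22 ± 0.58. Sham liver 5 is the library with high Rsad2, and without it the differences were 1.89 for Mt1 and 2.07 for Mt2. Whether its antiviral genes and its metallothionein level are connected was not tested.

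**Figure D1:**
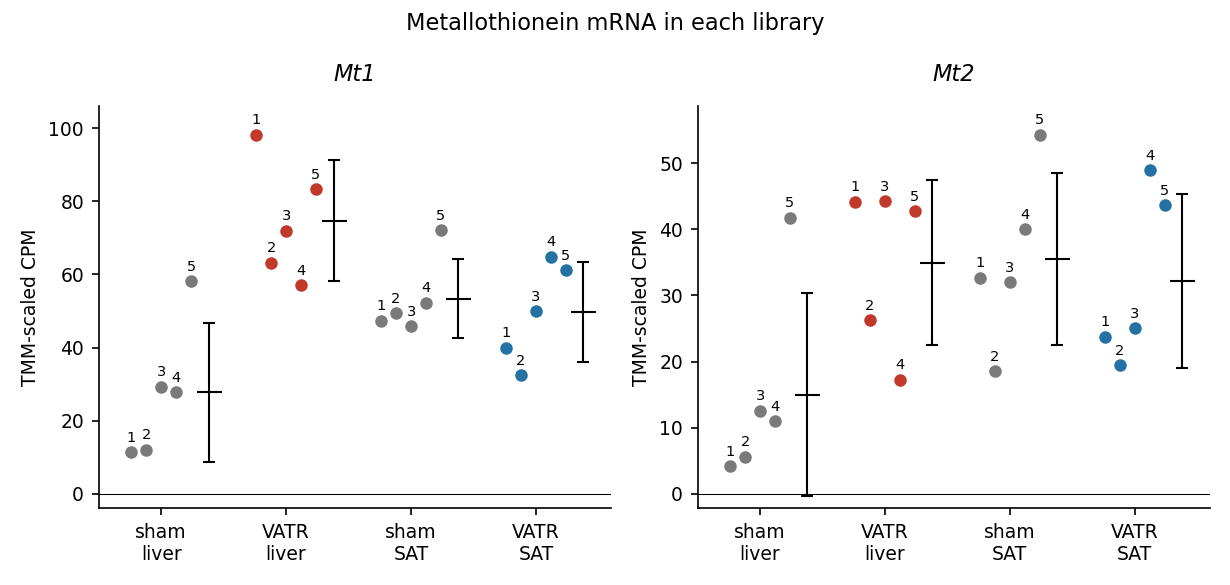
Each point is 1 library, numbered as in the labels, with the scaled level of Mt1 (left panel) or Mt2 (right panel) in CPM on a linear axis for the 4 groups; the black bar is the group mean with its SD (n = 5). Sham livers lie low apart from library 5, VATR livers lie mostly above them, and the SAT groups overlap.

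Slc39a14, the importer, was higher in each VATR liver than the sham mean. Its levels were 248.3, 236.4, 271.1, 295.6 and 246.8 CPM in sham livers 1 to 5. VATR livers 1 to 5 had 437.2, 276.9, 422.1, 315.2 and 307.5 CPM. Only VATR liver 2 fell within the sham range, and libraries 1 and 3 were far above the rest. Mean Slc39a14 was 259.6 ± 23.7 CPM in sham and 351.8 ± 72.7 CPM in VATR livers (SD, n = 5 each), a log2 difference of 0.44 ± 0.13 that 11.8% of all genes exceeded in size. Libraries 1 and 3 are those with the macrophage and the adipocyte markers, and the difference was 0.35 without library 1 and 0.36 without library 3.

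Slc39a10, the importer that Mtf1 represses, was the member with the lowest liver level per length and the one with the largest fitted decrease. Sham livers 1 to 5 had 6.58, 9.99, 9.72, 8.77 and 9.31 CPM. In VATR livers 1 to 5 it was at 3.84, 8.26, 5.65, 4.99 and 7.29 CPM. All VATR livers lay below the sham mean, and 3 of 5 lay below every sham liver. The means were 8.87 ± 1.36 CPM in sham and 6.01 ± 1.77 CPM in VATR livers (SD, n = 5 each), with a log2 difference of -0.56 ± 0.20, and 7.54% of all genes differed by more.

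Both exporter genes and the sensor gene showed no shift of that kind. Slc30a1, the plasma membrane zinc exporter, was at 40.0, 41.7, 37.0, 33.1 and 36.0 CPM in sham livers and at 54.3, 38.5, 35.7, 34.8 and 33.7 CPM in VATR livers. VATR liver 1 alone was above the sham range, and the log2 difference of 0.07 ± 0.13 became -0.08 without it. This is the library with 614.1 CPM of macrophage and Kupffer cell markers, whose part in its Slc30a1 level was not tested. Slc30a10, the manganese exporter, was at 50.4, 27.3, 27.2, 34.5 and 19.6 CPM in sham livers and at 37.5, 23.1, 34.5, 12.0 and 15.7 CPM in VATR livers. It scattered in both groups, with VATR livers 4 and 5 below the sham range and a log2 difference of -0.37 ± 0.34. Mtf1 mRNA was steady, at 35.0, 34.2, 31.8, 30.9 and 30.9 CPM in sham and 32.1, 29.3, 34.4, 28.1 and 32.3 CPM in VATR livers. Its log2 difference was -0.06 ± 0.07, smaller in size than that of 75.6% of all genes. Mtf1 acts through zinc binding and movement to the nucleus, which mRNA levels do not record.

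**Figure D2:**
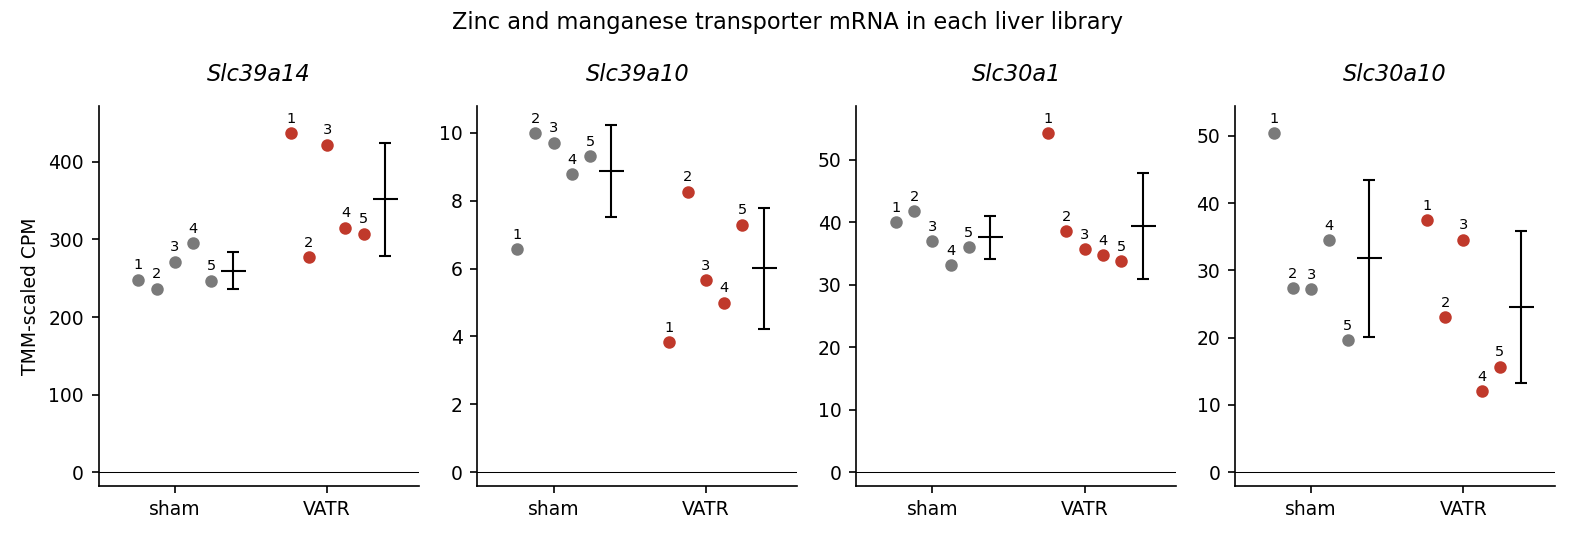
Scaled level in CPM (linear axes, each from 0) of the 4 carrier genes in each numbered sham (grey) and VATR (red) liver, with black bars for the mean and SD (n = 5). Slc39a14 sits higher and Slc39a10 lower in most VATR livers, while Slc30a1 and Slc30a10 overlap fully apart from VATR liver 1 for Slc30a1 and VATR livers 4 and 5 for Slc30a10.

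Of the 7 genes, 4 had a positive and 3 a negative liver difference, with a median of 0.07 against 0.01 over all genes tested. With edgeR's quasi-likelihood test at an adjusted p of 0.05, 0 of the 7 were called, and the share called over all genes was 0%. At an unadjusted p of 0.05, 3 of 7 passed (Mt1 and Slc39a14 on the higher side, Slc39a10 on the lower), where 9.9% of all genes did. DESeq2 called 1 of 7, Mt1, where it called 1.43% of 15393 genes. Since the contrast had been seen when the genes were chosen, these counts are listed beside the background and nothing is read from them.

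SAT offered the same surgery contrast in a tissue where the metallothionein difference of the liver had no part in the fit. No member differed there beyond the spread between libraries. Mt1 was at 47.4, 49.4, 45.8, 52.2 and 72.1 CPM in sham SAT 1 to 5 and at 40.0, 32.4, 50.03, 64.9 and 61.2 CPM in VATR SAT 1 to 5. Mt2 was at 32.7, 18.6, 32.0, 40.0 and 54.3 CPM in sham and 23.8, 19.5, 25.0, 48.9 and 43.7 CPM in VATR SAT. The groups overlapped for both genes, with sham library 5 the highest in each. The log2 differences were -0.10 ± 0.20 for Mt1 and -0.14 ± 0.32 for Mt2, and both changed sign without sham SAT 5, to 0.03 and 0.06. VATR SAT 2, the library with the most muscle markers, had the lowest Mt1 and Mt2 of its group, and without it the Mt1 difference was 0.01. Sham SAT 2, highest in muscle markers among the sham SAT libraries, had the lowest Mt2 but not the lowest Mt1 of its group. The part of muscle RNA in those levels was not tested. Without sham SAT 3 and 4, the libraries with lymphocyte markers, the differences were -0.18 for Mt1 and -0.13 for Mt2.

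The carriers and Mtf1 were as close between the surgeries in SAT. Slc39a14 was at 20.8, 17.0, 25.8, 28.1 and 25.9 CPM in sham and 21.7, 24.3, 25.3, 30.2 and 29.2 CPM in VATR SAT. Slc30a1 was at 25.7, 21.8, 23.7, 24.8 and 23.0 CPM in sham and 24.5, 21.3, 23.4, 22.4 and 29.3 CPM in VATR SAT. The groups overlapped for both, with Slc30a1 of VATR SAT 5 above the sham range and that of VATR SAT 2 just below it. Mtf1 was at 29.6, 35.9, 37.5, 36.1 and 36.2 CPM in sham and 32.1, 34.5, 34.1, 36.8 and 36.5 CPM in VATR SAT, where the VATR libraries all lay within the sham range. Slc39a14 differed by 0.15 ± 0.15, Slc39a10 by -0.03 ± 0.10, Slc30a1 by 0.02 ± 0.10 and Mtf1 by -0.01 ± 0.08 on the log2 scale. Slc39a14 moved to 0.30 without sham SAT 3 and 4, and was not called there either. Slc39a10, for example, averaged 35.5 ± 3.73 CPM in sham and 34.8 ± 3.08 CPM in VATR SAT (SD, n = 5 each). Slc30a10 did not pass the filter on low counts, with 0, 0, 0, 1 and 1 reads in sham and 0, 0, 2, 0 and 1 reads in VATR SAT. Of the 6 genes tested, 0 were called by edgeR, where 0% of 18530 genes were, with adjusted p from 0.74 to 0.975. At an unadjusted p of 0.05 0 of 6 passed, where 10.6% of all genes did, and DESeq2 called 0 of 6, where it called 0.894% of 17672. The median difference of the 6 was -0.02, against 0.00 over all genes. None of these p-values shows that the levels were alike, and the SE of 0.20 for Mt1 and 0.32 for Mt2 mark how closely 5 libraries a group fix them.

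The difference between the tissues in their response was fitted in 1 model of all 20 libraries. It contains the liver contrast and is therefore a description. Expressed as SAT minus liver, it was -1.54 ± 0.47 for Mt1, -1.37 ± 0.68 for Mt2 and -0.29 ± 0.21 for Slc39a14, so for all 3 the fitted VATR minus sham difference was the larger in liver. For Slc39a10 it was 0.52 ± 0.23, for Mtf1 0.04 ± 0.11 and for Slc30a1 -0.05 ± 0.16, and for Slc30a10 it rests on at most 3 reads per SAT group. edgeR called 0 of 7 for this difference, where 0% of 19954 genes were called. At an unadjusted p of 0.05 2 of 7 passed (Mt1 and Slc39a10), where 10.1% of all genes did, and DESeq2 called 0 of 7, where it called 0.624%. As for liver, these counts are listed beside the background and nothing is read from them.

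**Figure D3:**
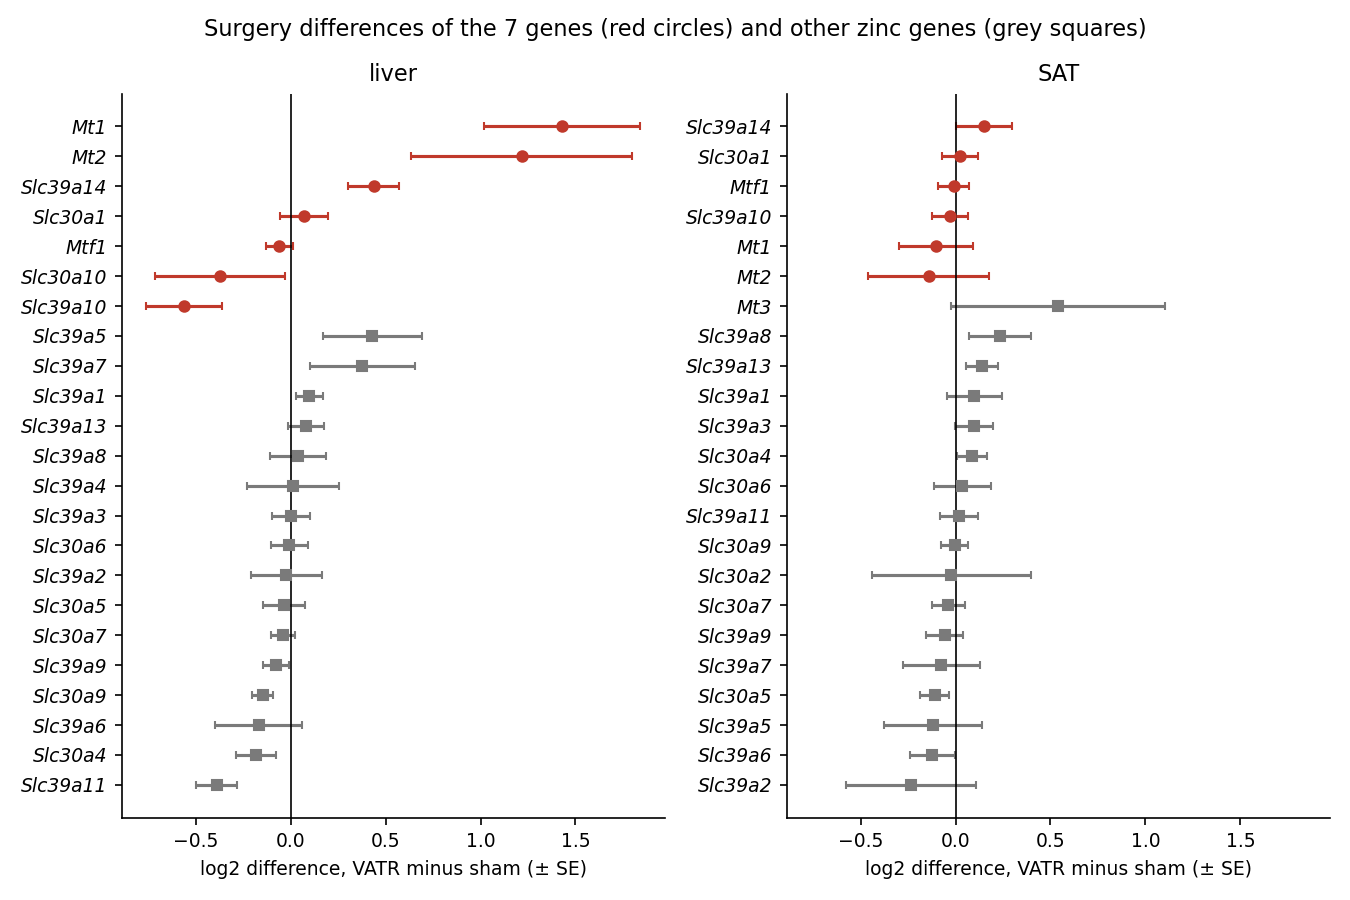
Points are log2 differences, VATR minus sham, with their SE, for liver (left) and SAT (right); red circles are the 7 genes where tested and grey squares the other zinc genes tested. In liver Mt1 and Mt2 lie to the right of every other zinc gene shown and Slc39a10 lies leftmost, and in SAT the red circles lie near 0.

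Liver and SAT were also compared within each surgery, with levels scaled over all 20 libraries. This contrast uses the same liver libraries as the surgery contrast, and for Mt1 and Mt2, whose liver values differed most between the surgeries, it is given without a test. Slc39a14 and Slc39a10 also had liver surgery differences, of 0.44 and -0.56. Their tissue p-values below are therefore not independent of how the genes were chosen. Slc39a14 averaged 317.1 CPM in sham liver against 19.4 CPM in sham SAT, a log2 difference, liver minus SAT, of 4.00 ± 0.16 (edgeR adjusted p = 3.07e-09), and the difference among VATR libraries was 4.32 ± 0.16 (adjusted p = 7.96e-10). Slc30a10 was close to 0 in SAT. Its sham reads summed to 4923 in liver and 2 in SAT, a ratio of 3840 in pooled CPM (95% exact Poisson interval 1060 to 31700), and after VATR to 3573 and 3, a ratio of 1960 (671 to 9500). These intervals cover counting error only. Slc30a10 passed the filter on low counts through its liver level alone, so no test is given for it.

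Slc30a1 was also higher in liver, at 45.8 CPM against 19.7 CPM in the sham groups, with a log2 difference of 1.19 ± 0.08 (edgeR adjusted p = 2.91e-07) and of 1.27 ± 0.14 (SE) after VATR (adjusted p = 5.25e-06). Mtf1 differed least among the genes called, by 0.43 ± 0.08 in sham (adjusted p = 0.000898) and 0.41 ± 0.07 after VATR (adjusted p = 0.000232). Slc39a10 went the other way, at 10.8 CPM in sham liver and 29.3 CPM in sham SAT, with a log2 difference of -1.46 ± 0.13 (adjusted p = 1.9e-06). After VATR its difference was -1.96 ± 0.19 (adjusted p = 2.18e-06).

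For the metallothioneins the liver minus SAT difference in sham libraries was -0.41 ± 0.39 for Mt1 and -0.71 ± 0.56 for Mt2. Without sham liver 5 it was -0.85 for Mt1 and -1.54 for Mt2. After VATR it was 1.16 ± 0.20 for Mt1 and 0.68 ± 0.32 for Mt2, the latter 0.86 without VATR liver 4 and 0.88 without VATR SAT 4. The change of this difference with surgery is the same quantity as the difference in response given above, for which edgeR called neither gene. Of the other members with enough reads in both tissues, edgeR called all 4 between the sham tissues (Slc39a14, Slc30a1, Mtf1 and Slc39a10), where 65% of 18449 genes were called. After VATR it called the same 4, where 69.7% of 18546 were. With so many genes called, the counts of members are not a result about them.

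Levels were compared between genes only as CPM per kb of exon, over the same 20-library scaling. In sham liver Mt2, Slc39a14 and Mt1 led with 31.0 ± 31.3, 30.1 ± 3.16 and 27.1 ± 18.2 CPM per kb (SD, n = 5 each). Their ranges overlapped, so their order is not resolved. Slc30a1 followed at 8.74 ± 0.73, Slc30a10 at 6.66 ± 2.46, Mtf1 at 4.46 ± 0.256 and Slc39a10 at 1.78 ± 0.269 CPM per kb. Slc30a10 overlapped both of its neighbours, and Slc39a10 lay below all of them in every library. In VATR liver Mt1 and Mt2, at 72.6 ± 15.6 and 71.8 ± 25.2 CPM per kb, came before Slc39a14 at 40.3 ± 7.73, and Mt1 no longer overlapped Slc39a14 while Mt2 did. In SAT the order was Mt2, Mt1, Slc39a10, Slc30a1, Mtf1, Slc39a14 and Slc30a10 under both surgeries. In sham libraries Mt2 was at 49.9 ± 18.2 and Slc39a14 at 1.84 ± 0.357 CPM per kb. Slc30a10 came last at 0.0019 CPM per kb, which rests on 2 reads in sham SAT. Among sham SAT libraries the ranges of Mt2 and Mt1 overlapped, as did those of Slc39a10 with Slc30a1 and of Slc30a1 with Mtf1, while Slc39a14 lay below Mtf1 in all of them. These lengths join the exons of all transcripts of a gene. For Mt1 the joined length, 1246 bases, is the whole span of the gene, so any intron of a spliced transcript is counted in it. For Mt2 it is 588 bases, less than the span of the gene. The level of Mt1 per kb is thus too low for a shorter, spliced transcript. Its order against Mt2 and Slc39a14 is set by these lengths and is not a result. For Slc39a14 the joined length is 10550 bases over 13 transcripts, which also lowers its level per kb for a shorter transcript. The place of Slc39a14 below Mtf1, Slc30a1 and Slc39a10 in SAT therefore depends on these lengths and is not a result either.

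**Figure D4:**
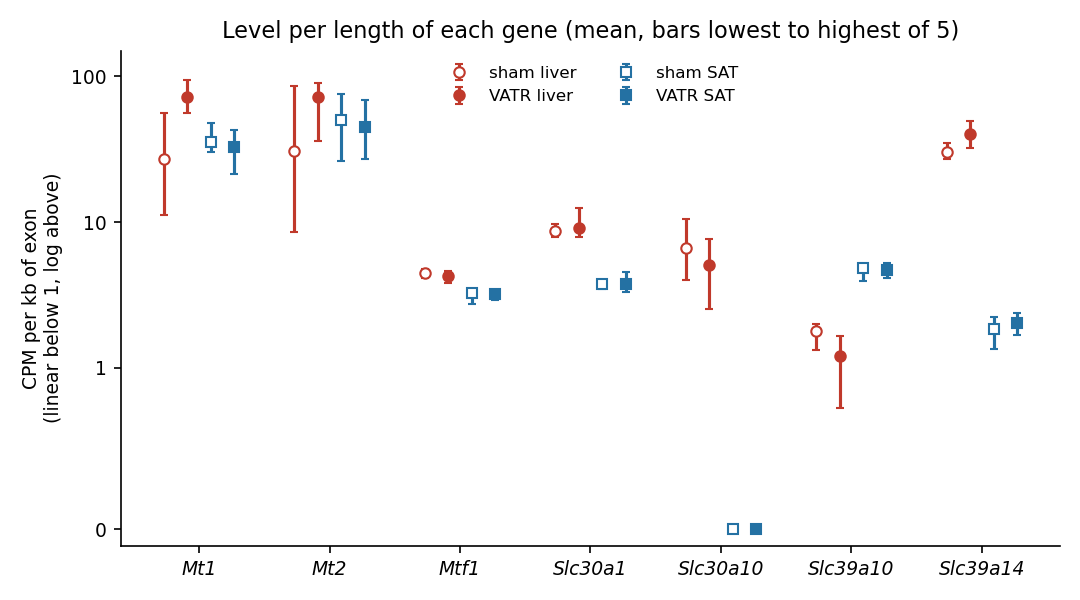
Mean level in CPM per kb of exon (axis linear below 1 and logarithmic above) of each gene in the 4 groups; bars run from the lowest to the highest of 5 libraries, open symbols are sham and filled symbols VATR, circles liver and squares SAT. The metallothioneins lead in all groups together with Slc39a14 in liver, Slc39a14 and Slc39a10 swap places between the tissues, and Slc30a10 is near 0 in SAT. Lengths join the exons of all transcripts, which for Mt1 gives the whole gene span and lowers its level per kb. The same joining lowers the level of Slc39a14, so its place in SAT depends on these lengths.

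Mt1 and Mt2 varied together from library to library. On the log2 CPM scale their correlation over the 10 livers was r = 0.964 (Spearman rho = 0.952). Without the 2 livers farthest from the median of Mt1, sham livers 1 and 2, r was 0.901. The sham livers kept 1 order for both genes, with 1 lowest, then 2, 4, 3 and 5, and VATR liver 4 was the lowest of its group for both. In SAT the correlation was r = 0.83 (rho = 0.818, permutation p = 0.00254, adjusted p = 0.014 over 11 relations of Mt1 with other members), and it rested partly on 2 libraries, since r was 0.709 (adjusted p = 0.256) without sham SAT 5 and VATR SAT 2. The handling of reads that map to more than 1 place is not stated, and reads shared by these close paralogs could enter both counts. The livers include both surgeries, so the surgery difference seen beforehand is part of their correlations, which are given without a p.

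**Figure D5:**
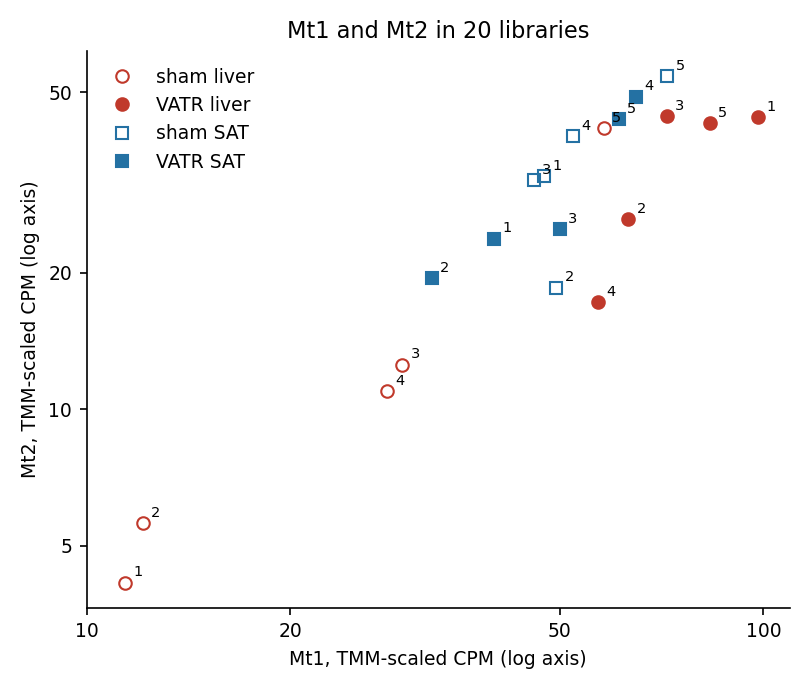
Mt1 (horizontal) against Mt2 (vertical) in CPM on log axes for the 20 libraries, numbered; open symbols are sham and filled symbols VATR, circles liver and squares SAT. The libraries line up along a rising band, with sham livers 1 and 2 at its low end.

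The other members had correlations with Mt1 nearer to 0. In liver, Slc39a14 had r = 0.69 (rho = 0.709), Slc39a10 had r = -0.50 (rho = -0.515) and Slc30a1 had r = 0.0315 (rho = -0.0667). Without sham livers 1 and 2, r became 0.554 for Slc39a14 and -0.671 for Slc39a10. Mtf1 had r = -0.45 in liver (rho = -0.152), and this turned to 0.20 without those livers. Slc30a10 had r = -0.437 in liver (rho = -0.20). In SAT, r was 0.423 for Slc39a14 (rho = 0.685) and 0.369 for Slc39a10 (rho = 0.479). It was 0.414 for Mtf1 (rho = 0.479) and 0.277 for Slc30a1 (rho = 0.115) there. Slc39a10 was thus negative in liver and positive in SAT. For these SAT relations the adjusted permutation p was at least 0.321 for r and at least 0.0953 for rho. Mt2 made up 31.7% ± 5.96 of the combined Mt1 and Mt2 reads in sham liver and 31.1% ± 5.52 in VATR liver, against 39.1% ± 6.70 in sham SAT and 38.6% ± 3.84 in VATR SAT (SD, n = 5 each). This share was computed after the levels had been seen. An exact two-sided permutation test over all 252 assignments of the libraries, which can give 0.00794 at the smallest, gave p = 0.151 between the tissues in sham and 0.0556 after VATR, and p = 0.873 in liver and 0.937 in SAT between surgeries. Adjusted over these 4 tests the smallest p was 0.222, so no difference in the share passed.

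Among 12594 liver genes that averaged 1 CPM or more, the 5 whose log2 levels were most like Mt1 over the 10 livers were Mt2 (r = 0.964), Rnf41 (0.932), Shank3 (0.92), Unk (0.913) and Slc37a1 (0.904). Rnf41 and Unk encode RING finger proteins, Shank3 a scaffold protein and Slc37a1 a phosphosugar carrier. Slc37a1 averaged 3.03 CPM in sham and 6.11 CPM in VATR livers. In SAT, over 13614 genes, the 5 were Plekha8 (0.938), Dhx40 (0.893), the insulin-responsive transcription factor gene Foxo1 (0.893), the interferon gamma receptor gene Ifngr1 (0.891) and Wasf2 (0.886). Mt2 came at rank 14 there. Besides Mt2 in liver, no member was among the nearest genes in either tissue, and the correlations are descriptions across 10 libraries that share a tissue.

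The rest of the zinc system was read from a list of 22 genes, the remaining metallothioneins Mt3 and Mt4 and further Slc30a and Slc39a carriers. Mt3, the brain-enriched form, averaged 0.118 CPM in sham and 0.109 CPM in VATR liver, and Mt4 had no reads in sham liver, sham SAT or VATR SAT, which at 3 reads allows up to 0.116 CPM in a library. In liver 16 of the 22 were tested, with 0 called by edgeR and, at an unadjusted p of 0.05, 0 higher and 2 lower, where 9.9% of all genes passed. DESeq2 called 0 of 16, where it called 1.43% of all genes, and the median difference was -0.01 against 0.01 over all genes. The 3 with the smallest p were Slc39a11 at -0.39 ± 0.11, Slc30a9 at -0.15 ± 0.06 and Slc30a4 at -0.18 ± 0.10, all with edgeR adjusted p of at least 0.304. Slc39a11, an intracellular zinc carrier, was at 37.4 ± 1.95 CPM in sham and 28.5 ± 5.05 CPM in VATR livers (SD, n = 5 each), and all VATR livers lay below the lowest sham liver. In SAT 17 were tested, with 0 called by edgeR and 0 passing unadjusted, and DESeq2 called 0 of 16. Over all genes in SAT 10.6% passed unadjusted, and edgeR called 0% and DESeq2 0.894%. The smallest p there belonged to Slc39a13 (0.14 ± 0.08), Slc30a5 (-0.11 ± 0.08) and Slc39a8 (0.24 ± 0.16).

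For the difference in response, 19 of the 22 were tested and 0 were called by edgeR or DESeq2, with 1 passing unadjusted in each direction. Over all genes 10.1% passed unadjusted, and edgeR called 0% and DESeq2 0.624%. Slc39a4, the importer known from the gut, had the largest value at -3.14 ± 0.98 (edgeR adjusted p = 0.34). Its SAT level was 3.33 and 4.73 CPM in sham SAT 3 and 4, the libraries with lymphocyte markers, and at most 0.326 CPM in the other SAT libraries, and the part of those 2 libraries was not tested. Slc39a11 followed with 0.40 ± 0.15 and Slc30a4 with 0.26 ± 0.13. Between the tissues, 10 of 16 zinc genes were called higher and 4 lower in sham liver, 87.5% where 65% of all genes were called. After VATR 10 of 17 were called higher and 4 lower, 82.4% where 69.7% of all genes were called. Both counts include Slc39a4, which passed the filter through liver alone, so nothing is read from them. Slc39a4 was at 58.0 CPM in sham liver, with the SAT levels given above, and no test is given for it. Of the other zinc genes, Slc39a8 (3.32 ± 0.20) and Slc39a5 (1.78 ± 0.26) had the next largest sham differences toward liver. Those toward SAT were Slc39a6 (-1.63 ± 0.20), Slc39a13 (-1.08 ± 0.10) and Slc39a3 (-0.96 ± 0.13), and these 5 had edgeR adjusted p of at most 8.95e-05.

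Lists of other signals to which liver metallothionein genes answer were read beside them, again with 0 genes called by edgeR in each. Of 19 acute phase and cytokine response genes in liver, 5 passed an unadjusted p of 0.05 on the higher and 0 on the lower side, where 9.9% of all genes passed, with a median difference of 0.29. Those with the smallest p were Fgl1, a secreted liver protein, at 1.57 ± 0.27, and Apcs, the serum amyloid P gene, at 0.55 ± 0.14. Of the 19, 12 had a positive and 7 a negative difference. Among the negative ones were Saa1 (-0.11 ± 0.15), Saa2 (-0.15 ± 0.22), Orm2 (-0.25 ± 0.25) and Lcn2 (-0.41 ± 0.41), so the list did not move as 1 set. Of 9 oxidant and metal response genes, 0 passed higher and 4 lower, with a median of -0.36. Gclc, the catalytic subunit of glutathione synthesis, was at -0.56 ± 0.11 (SE) and the thioredoxin reductase gene Txnrd1 at -0.38 ± 0.08. Of 9 glucocorticoid targets, 0 passed higher and 1 lower, with a median of 0.08, and Dusp1 (-0.43 ± 0.17) and Per1 (0.46 ± 0.22) had the smallest p. Of 11 copper and manganese genes, 1 passed higher and 2 lower, led by the copper chaperone Cox17 (0.42 ± 0.15) and the divalent metal importer Slc11a2 (-0.30 ± 0.12). The part of these signals in the metallothionein levels was not tested.

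In SAT the same lists had 0 called by edgeR too. Among 12 acute phase genes tested 0 passed an unadjusted p of 0.05, where 10.6% of all genes did, and Orm2 (-0.55 ± 0.34) and Itih3 (-0.82 ± 0.69) had the smallest p. Of 9 oxidant and metal response genes 2 passed on the lower side, Gclc (-0.28 ± 0.11) and the cystine carrier gene Slc7a11 (-1.05 ± 0.44). Of 8 glucocorticoid targets 1 passed on the higher side, Dusp1 at 0.37 ± 0.14 (SE), beside Per1 at 0.41 ± 0.21. Of 11 copper and manganese genes 0 passed, with Commd1 at 0.17 ± 0.10 and Cox17 at -0.29 ± 0.20. Marker sums of other liver cells overlapped between sham and VATR livers: 257.8 to 307.9 against 266.4 to 385.1 CPM for 4 endothelial markers, and 121.6 to 290.6 against 174.7 to 614.1 CPM for the 6 macrophage and Kupffer cell markers, with no marker of either list at 0 in a liver group.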

How the data were processed

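Total RNA depleted of ribosomal RNA was sequenced from 20 libraries, grouped by their titles. The unit deposited by the authors is the raw read count per gene. Per the submitters' processing notes, the tools were bcl2fastq, the aligner STAR 2.5.1a on build GRCm38, and featureCounts 1.46 from Subread. Annotation, strand and multi-mapping settings are not stated there. Of 40757 entries, 317 exact repeats were dropped.

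The 7 genes and all lists were chosen with earlier results of these data known. In R 4.3.3, each comparison used edgeR 4.0.16 (filterByExpr, TMM, robust quasi-likelihood F-test) with Benjamini-Hochberg adjustment over all genes tested and a threshold of 0.05. The SE is from the F statistic. Surgery was compared within each tissue, and tissues within each surgery. CPM is TMM-scaled within a tissue, or over 20 libraries where tissues or genes are compared. Alternatives were DESeq2 1.42.0, RLE scaling, other filters, no robust fitting, 1 joint fit, a replicate block and leaving out libraries. The fit was also run on simulated data for all comparisons but that of the VATR tissues. Its recovery of known changes is not given here. All 7 genes were named, plus the list genes with the smallest p (for tissues, the largest differences) and the 5 genes most correlated with Mt1 (log2 CPM, prior count 2). Correlations used 100000 permutations. Gene models were GENCODE M21 and promoters RefSeq GRCm38.p6, matched by symbol.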

Additional observations from a re-analysis of the deposited data

Results flagged for a closer look

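Libraries were searched for single values far from the other 4 of their group, in 26 groups of 5, with a gap to the nearest library above 0.71 of the whole range. Chance gives such a value in about 1 in 20 groups, and 5 were found. Mt2 in sham liver 5 was at 41.8 CPM, with 12.6 CPM the next highest, and this is the library with high Rsad2. Mt1 in sham SAT 5 was at 72.1 CPM, with 52.2 CPM next. Slc30a1 in VATR liver 1 was at 54.3 CPM, with 38.5 CPM next, in the library with the highest macrophage and Kupffer cell markers. Mtf1 in sham SAT 1 was at 29.6 CPM, with 35.9 CPM the nearest. Slc39a10 in sham SAT 3 was at 29.03 CPM, with 36.2 CPM the nearest, in a library with lymphocyte markers.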

How the results depend on the processing

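Over 661 alternative values of the members in the 5 comparisons, 639 kept direction and side of the threshold, 16 changed sign and 6 passed the threshold where the reported value did not. In liver 0 genes were called by edgeR. DESeq2 called 89 higher and 131 lower, no filter or at least 1 CPM in 5 libraries gave 1 higher and 2 lower, and 1 fit of all 20 libraries gave 16 higher and 11 lower. Leaving out each library gave 0 to 16 higher and 0 to 37 lower, the most without VATR liver 3. In SAT DESeq2 called 53 higher and 105 lower, and leaving out a library gave 0 higher and 0 to 1 lower. For the difference in response DESeq2 called 31 higher and 93 lower, and leaving out a library gave 0 to 3 higher and 0 to 1 lower. In liver, leaving out each library moved Mt1 from 1.23 to 1.89, Mt2 from 0.98 to 2.07 and Slc30a1 from -0.076 to 0.12. In SAT it moved Mt1 from -0.22 to 0.031, Mt2 from -0.34 to 0.065, Mtf1 from -0.074 to 0.019, Slc30a1 from -0.053 to 0.057 and Slc39a10 from -0.10 to 0.013. Mtf1 in SAT was at 0.035 without sham SAT 3 and 4. The difference in response ran from -0.13 to 0.089 for Slc30a1, from -0.014 to 0.10 for Mtf1 and from -0.010 to 1.32 for Slc30a10. The correlation of Mt1 with Mtf1 in liver turned to 0.20 without 2 libraries. The causes were not tested.

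No source says that an equal library number marks 1 mouse, and the correlation of deviations between equal numbers was not above 0.1 in every pair. It was -0.0546 to 0.198 between the liver groups (4 of 5 pairs above 0.1), -0.237 to 0.322 between the SAT groups (2 of 5), -0.139 to 0.0893 between the sham tissues and 0.0264 to 0.0843 between the VATR tissues (0 of 5 each). Libraries correlated best with their own number in 3, 1, 0 and 4 of 5 cases, a hint from the data and not from the design. With a replicate block the liver differences were 1.64 for Mt1 and 1.59 for Mt2, and 0 genes were called in either tissue's surgery comparison. The sham tissue difference of Mt2 was -1.11 with the block, and as above it is given without a test. The block changed no call of the other members. Depth limited Slc30a10 in SAT, which had at most 2 reads in a library.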
